A study of Mus musculus with 18 samples.

Results

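The cohesin binding sites described here were called in pooled samples of lipopolysaccharide- and IL-4-stimulated mouse B cells at both 48 h and 96 h. They were not called in the pooled sample of resting B cells, though 33 had a peak in a resting replicate. They were chosen by the peak lists that the study made after pooling the replicates of each time point. Peaks of the resting, 48 h and 96 h pooled lists that shared at least 1 bp were merged into 15705 sites, and a site was a member when it held a 48 h peak and a 96 h peak and no resting peak. This gave 901 members, 5.74% of all sites. The pooled lists therefore fixed the pattern over time, and the pooled scores of the members are given as a description, with no test.

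All cells were splenic B cells of 8- to 10-week-old C57BL/6 mice, purified on magnetic columns. Resting B cells were taken at 0 h, and the other cells were cultured with lipopolysaccharide, a bacterial activator of B cells, and IL-4, a cytokine that directs switching to IgG1, for 48 h or 96 h. The 96 h cells were in addition enriched for IgG1-expressing cells by negative selection, so time in culture and this purification cannot be told apart. Each group had 3 replicates, each of cells pooled from several animals, and chromatin was precipitated with an antibody to RAD21. Peak positions give no expression level, so the cell type could not be checked from its markers.

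RAD21 is the kleisin subunit that closes the cohesin ring around DNA. Cohesin holds sister chromatids together and extrudes chromatin loops in interphase, and it halts at many sites where the zinc finger protein CTCF is bound. In B cells such loops bring distant parts of the immunoglobulin loci and of other genes together.

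The replicate lists differed in length, from 821 peaks in resting replicate 2 to 8579 peaks in 96 h replicate 3. The second 48 h replicate stood apart. Its list held 5254 peaks against 1538 and 1563 in 48 h replicates 1 and 3, and their median width was 65 bp against 188 and 162 bp. The pooled 48 h list was made with this replicate, so the members are given below both with and without those that it alone supported at 48 h.

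Sequences of the members with the broadest replicate support are shown first, because most members carried a match to 1 motif. The motif was learned from 932 sites that were not members and were called in 6 or more of the 9 replicates, of which 864 lay in all 3 pooled lists. Its consensus, GCCACCAGGGGGCGCCAGAG, contains the letters of the well-known CTCF motif. A match had to exceed a log2 odds score of 9.58, which 5% of windows of 201 bp lying 1 kb away from sites exceeded, and both strands were searched. In the following lines the matched 20 bases are in capitals, in mm9, 5′ to 3′ on the strand named.
Site upstream of Ppp6c, chr2:39228810-39228869, minus strand: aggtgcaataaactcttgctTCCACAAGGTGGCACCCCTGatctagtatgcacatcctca
Site upstream of Spata7, chr12:99859369-99859428, minus strand: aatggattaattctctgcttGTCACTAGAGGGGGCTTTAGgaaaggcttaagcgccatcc
Site downstream of Igfbp2, chr1:72901649-72901708, minus strand: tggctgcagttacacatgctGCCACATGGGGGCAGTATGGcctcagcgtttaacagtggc
Site upstream of Col6a1, chr10:76197940-76197999, minus strand: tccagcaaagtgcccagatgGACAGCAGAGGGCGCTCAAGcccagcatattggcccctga
Site in Mink1 intron 12, chr11:70418855-70418914, minus strand: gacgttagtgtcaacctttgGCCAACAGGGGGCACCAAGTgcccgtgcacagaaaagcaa

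Among the members at genes of B cell lists, those with a motif match are shown by 4 examples, again with the matched bases in capitals.
Site in Bach2 intron 5, chr4:32659250-32659309, minus strand: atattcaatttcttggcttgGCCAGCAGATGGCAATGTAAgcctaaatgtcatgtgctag
Site in Lyn intron 10, chr4:3707697-3707756, minus strand: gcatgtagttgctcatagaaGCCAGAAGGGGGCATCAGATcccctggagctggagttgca
Site in Prkcb intron 5, chr7:129614289-129614348, plus strand: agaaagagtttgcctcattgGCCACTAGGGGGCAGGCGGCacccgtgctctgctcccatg
Site in Plcg2 intron 7, chr8:120093508-120093567, minus strand: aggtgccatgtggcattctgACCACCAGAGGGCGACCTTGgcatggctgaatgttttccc

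Members that had a 48 h peak in replicate 2 only looked different, and 3 of those with the highest 48 h scores are shown with a perfect tandem repeat in capitals.
Intergenic site on chromosome 2, chr2:56004412-56004478, plus strand: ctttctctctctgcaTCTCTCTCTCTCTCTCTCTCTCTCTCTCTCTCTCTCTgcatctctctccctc
Site in Plxna4 intron 3, chr6:32346921-32346981, plus strand: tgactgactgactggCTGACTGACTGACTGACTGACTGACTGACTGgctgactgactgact
Intergenic site on chromosome 3, chr3:91632660-91632754, plus strand: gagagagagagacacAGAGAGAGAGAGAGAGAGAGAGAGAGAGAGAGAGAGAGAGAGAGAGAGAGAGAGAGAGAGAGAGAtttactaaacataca

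Support by replicates was uneven between the time points. A peak overlapped 190, 207 and 178 of the 901 members in 48 h replicates 1, 2 and 3, which is 21.1%, 23.0% and 19.8%. In the 96 h replicates the counts were 248, 362 and 612, or 27.5%, 40.2% and 67.9%. The resting replicates had a peak at 5, 1 and 27 members. Higher shares at 96 h were also found for all sites, of which 9.61%, 15.7% and 9.79% had a peak in the 48 h replicates. In the 96 h replicates 17.8%, 28.9% and 52.7% had one, so the unevenness between time points is not particular to the members. Among the 48 h replicates, replicate 2 had the largest share in both sets, but replicates 1 and 3 changed places. The order among the 96 h replicates was that of their list lengths of 2807, 4552 and 8579 peaks.

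**Figure D1:**
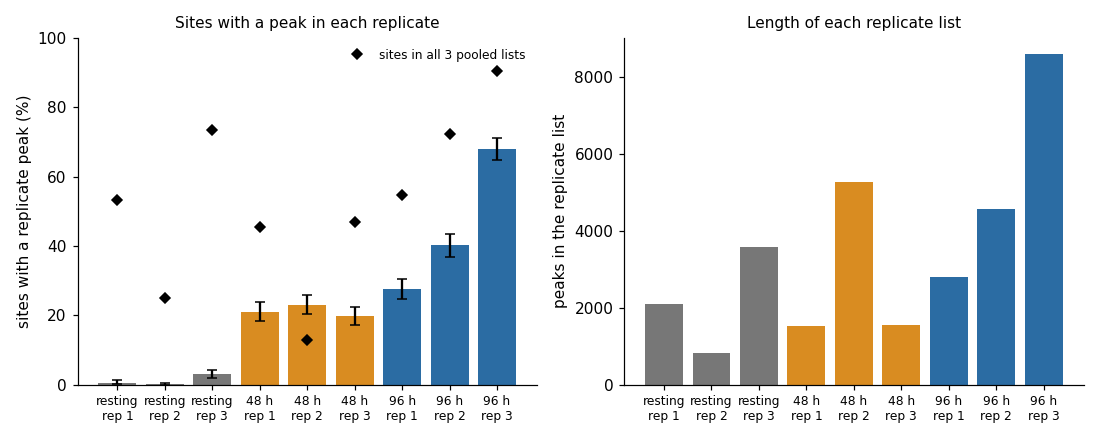
Left, percentage of the 901 members with a peak in each replicate (bars, with exact 95% binomial intervals) and the same for the 2382 sites in all 3 pooled lists (diamonds). Right, number of peaks in each replicate list. Resting replicates reach 0.555%, 0.111% and 3.00% of members, and 48 h replicate 2 is the only replicate that covers a larger share of members (23.0%) than of sites in all 3 lists (12.9%).

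The mean share of members with a peak was 21.3% ± 1.62 at 48 h and 45.2% ± 20.7 at 96 h (SD, n = 3 each). The groups did not overlap, and the two-sided exact permutation test gave p = 0.1, the smallest that 3 against 3 allows, or 0.2 adjusted over 8 tests. The pooled lists that chose the members were made from these same replicates, so the test is not independent of the rule. The difference of 23.9 percentage points was 12.6 without 96 h replicate 3 and 32.8 without 96 h replicate 1. The direction turned when each replicate list was cut to 821 peaks, those with the highest scores. The shares were then 11.3%, 11.9% and 9.43% at 48 h and 6.66%, 6.77% and 5.44% at 96 h, a difference of -4.59 percentage points.

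Among the 901 members, 357 (39.6%, exact 95% interval 36.4 to 42.9) had a peak in at least 1 replicate of each stimulated time point. Of the 2382 sites in all 3 pooled lists, 1637 (68.7%) did. No stimulated replicate had a peak at 66 members (7.33%), and 64 of these had no peak in a resting replicate either. The share with no stimulated replicate peak was 27.4% of all sites. It was 1.64% of sites in all 3 lists and 41.1% of sites of the 96 h list only. Exactly 1, 2 or 3 of the 6 stimulated replicates had a peak at 291, 267 and 167 members, 4 or 5 at 81 and 27, and all 6 at 2 members.

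Resting support was rare and single. A peak in a resting replicate was found at 33 members (3.66%) against 25.9% of all sites, and never in more than 1 resting replicate. The rule removed sites with a pooled resting peak, so this low share is partly fixed by it.

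At 48 h, replicates 1 and 3 mostly supported other members than replicate 2. Replicate 1 alone had a peak at 138 members, replicate 3 alone at 116, and both without replicate 2 at 42, together 296. Replicate 2 alone had a peak at 179 members. Of the 207 members with a peak in replicate 2, 28 (13.5%) also had one in replicate 1 or 3, of which 2 had a peak in all 3. Among sites in all 3 pooled lists this was 192 of 308 (62.3%). The remaining 398 members had a 48 h peak in the pooled list but in no 48 h replicate, or 44.2% against 27.7% of sites in all 3 lists.

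Support at 96 h differed between these classes. At least 1 of the 96 h replicates had a peak at 271 of the 296 members of replicate 1 or 3 (91.6%, exact 95% interval 87.8 to 94.5) and at 332 of the 398 members with no 48 h replicate (83.4%, 79.4 to 86.9). Among the 179 members of replicate 2 only, 66 had one (36.9%, 29.8 to 44.4). Over all sites the share was 58.3%. The same classes of sites in all 3 lists followed the same order, with 97.4%, 94.1% and 69.0%. All 3 of the 96 h replicates had a peak at 88 members of replicate 1 or 3 and at 1 member of replicate 2 only. The intervals cover counting error only, and sites that share replicates are not independent of each other.

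**Figure D2:**
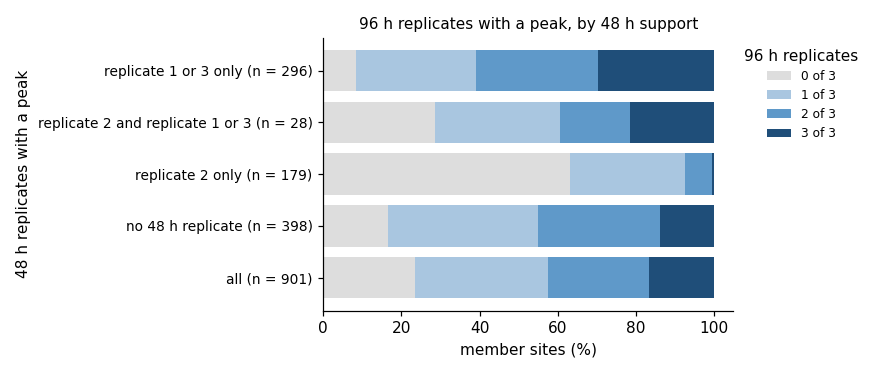
Percentage of members (x axis) with a peak in 0, 1, 2 or 3 of the 96 h replicates, by which 48 h replicates had a peak there (rows). Of the 179 members of 48 h replicate 2 only, 113 have no 96 h replicate peak, against 25 of the 296 members of replicate 1 or 3 only.

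Score ranks of the pooled peaks also differed between these classes. The classes were set by the same 48 h replicates that made the 48 h pooled list, so the 48 h ranks are not independent of them. Scores were turned into percentiles within each list, with 100 the highest, because the scale of the deposited score is not given. The 48 h and 96 h pooled lists held 5579 and 12806 peaks, so a percentile in one does not equal the same percentile in the other, and the classes are compared within a list. The median member stood at percentile 29.6 of the 48 h pooled list and 58.9 of the 96 h pooled list. Sites in all 3 lists stood at 41.4 and 84.4. Members of 48 h replicate 1 or 3 only had medians of 32.2 at 48 h and 76.1 at 96 h, and those with no 48 h replicate 17.1 and 61.3. Members of replicate 2 only stood highest of these 3 classes at 48 h and lowest at 96 h, at 86.8 and 30.7. Without members of replicate 2 only, the medians of the remaining 722 members were 22.5 and 66.2. The same 3 classes of sites in all 3 lists followed the same order. Their medians were 45.8 and 88.1, 20.7 and 77.6, and 92.6 and 53.2.

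**Figure D3:**
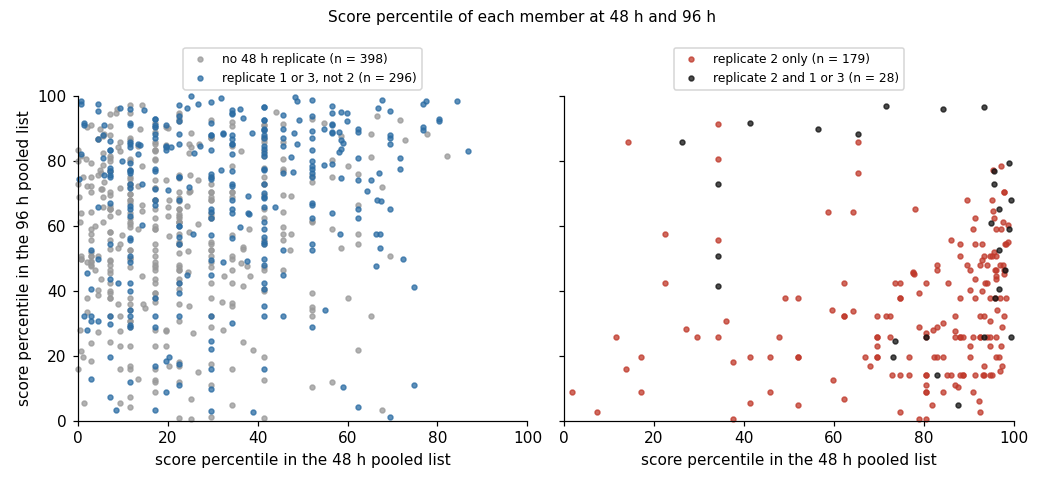
Each point is a member, placed by the percentile of its score within the 48 h pooled list (x axis) and within the 96 h pooled list (y axis, 100 the highest in both). Members of replicate 2 only (right, red) gather at high 48 h and low 96 h percentiles, with medians of 86.8 and 30.7, while the other panel's members of replicate 1 or 3 (blue) have medians of 32.2 and 76.1.

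The replicate lists are not independent of the rule, since the pooled lists were made from the same replicates. In these replicate lists the median percentile of member peaks was 45.9, 84.5 and 46.4 in 48 h replicates 1, 2 and 3. In the 96 h replicates it was 50.5, 53.3 and 57.6. The means were 58.9 ± 22.2 at 48 h and 53.8 ± 3.62 at 96 h (SD, n = 3 each), with an exact permutation p of 1. Without 48 h replicate 2 the difference between 96 h and 48 h changed from -5.12 to 7.67 percentile points. The lists differ in length, and with lists of 821 peaks it was -8.53 points (exact permutation p = 0.5), or 0.102 without 48 h replicate 2. The 48 h group was thus split by replicate 2, which was the highest of all 6.

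Most members held the CTCF-like motif. A match lay within 100 bp of the centre of 668 members (74.1%, exact 95% interval 71.1 to 77.0), against 77.4% of all sites and 5.16% of windows 1 kb away from members. The match was close to the site centre, at a median of 17 bp, and 95.8% of matches lay within 50 bp. Over all sites these values were alike, at 18 bp and 94.7%. Sites in all 3 lists had a match in 88.5%, and sites of the 96 h list only in 92.9%.

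The motif share depended on which 48 h replicate saw the member. It was 92.9% (89.4 to 95.6) for members of replicate 1 or 3 only and 91.7% (88.6 to 94.2) for those with no 48 h replicate. It was 8.94% (5.20 to 14.1) for members of replicate 2 only, and 42.9% (24.5 to 62.8) for the 28 members of both kinds. The same classes of sites in all 3 lists had 95.6%, 94.8%, 29.3% and 50.0%, so the split is not particular to the members. Leaving out the 179 members of replicate 2 only, 652 of 722 members had a match (90.3%, 87.9 to 92.4). Among the few members of replicate 2 only that had a match, 13 of 16 also had a 96 h replicate peak, against 53 of the 163 without a match.

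Tandem repeats showed the reverse pattern. A perfect repeat of a unit of 1 to 4 bases, at least 20 bases long, lay within 100 bp of the centre of 160 members (17.8%, 15.3 to 20.4), against 13.1% of all sites and 7.21% of windows 1 kb away. It was found at 130 of the 179 members of replicate 2 only (72.6%, 65.5 to 79.0) and at 4 of the 296 members of replicate 1 or 3 only (1.35%, 0.369 to 3.42). Members with no 48 h replicate had one in 3.77%. Without the members of replicate 2 only the share of members was 4.16%. Sites in all 3 lists were split likewise, with 53.4% for replicate 2 only, 1.55% for replicate 1 or 3 only and 3.95% for no 48 h replicate.

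The unit was AG, or TC on the other strand, in 116 of the 160 members with a repeat and in 100 of the 130 of replicate 2 only. Their median length in the latter was 46 bases and the longest had 107. Sites of the 48 h list only had a repeat in 65.5% and a motif match in 3.43% (2.70 to 4.30), the latter below the 8.94% of the members of replicate 2 only. Both a motif match and a repeat were found at 22 members (2.44%), and neither at 95 (10.5%). These were near the shares over all sites, 2.16% and 11.7%.

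The sequence around the members also differed between these classes in how often it recurs in the genome. On average 85.9% of the 32-base words in the 201 bp around the centre of a member occurred once in mm9. Over all sites the mean was 88.5%. It was 97.8% for members of replicate 1 or 3 only, 97.4% with no 48 h replicate and 44.1% for replicate 2 only. The same classes of sites in all 3 lists had 98.1%, 97.8% and 55.1%. In 101 of the 179 members of replicate 2 only (56.4%) fewer than 50% of the words were unique. The share was 10.9% over all sites and 46.6% for sites in all 3 lists of replicate 2 only. The part of read mapping in the replicate 2 peaks was not tested. Mean GC content was 49.4% and 48.3% in the classes of replicate 1 or 3 only and replicate 2 only.

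**Figure D4:**
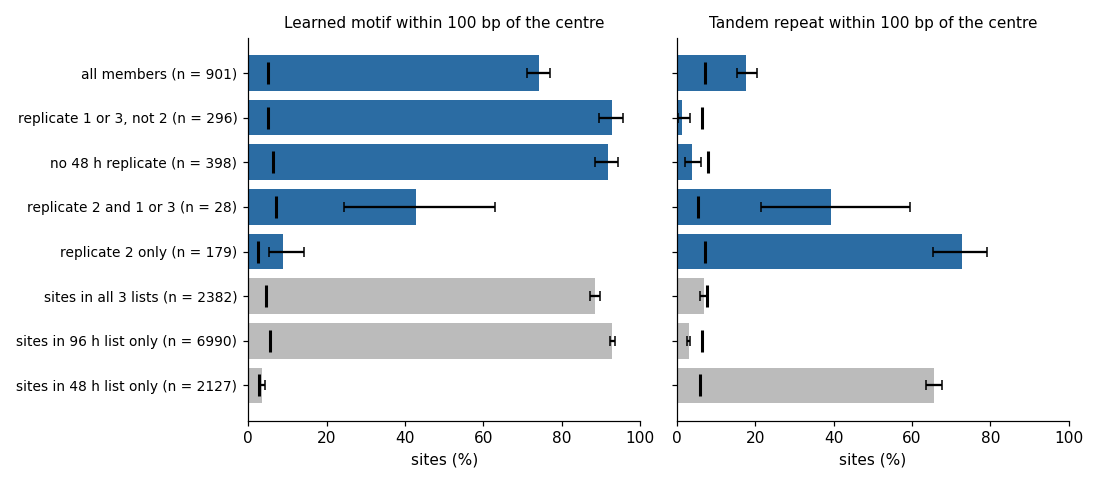
Percentage of sites with a match to the learned motif (left) or a perfect tandem repeat (right) within 100 bp of the centre, for members by 48 h support (blue) and for other sites (grey), with exact 95% binomial intervals. Black ticks mark the share in windows 1 kb away. Members of replicate 2 only stand at 8.94% for the motif and 72.6% for the repeat, with intervals outside those of every other class of members.

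The same measures taken at the replicates' own peaks gave each sample's value. The motif share of peaks at members was 91.1%, 10.4% and 87.6% in 48 h replicates 1, 2 and 3, and 82.3%, 93.6% and 87.9% in the 96 h replicates. The repeat share was 3.16%, 69.2% and 5.62% at 48 h and 11.3%, 3.31% and 6.21% at 96 h. Only 48 h replicate 2 lay outside the range of the other 5 by a wide margin, so the groups overlapped.

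For neither share did the exact permutation test over 3 against 3 replicates pass the threshold between the time points. The motif share was 24.9 percentage points higher at 96 h (63.0% ± 45.6 against 87.9% ± 5.69, SD, n = 3 each, exact p = 0.6) and the repeat share differed by -19.1 points (exact p = 0.9). Without 48 h replicate 2 these differences turned to -1.41 and 2.55 points. These exact tests cannot go below p = 0.1, so they cannot show that the shares were alike.

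The motif share of member peaks was also set against that of peaks at sites in all 3 pooled lists within the same replicate, and the mean difference over the 6 stimulated replicates was -6.17 percentage points. The difference was negative in 5 of 6 replicates, from -23.4 in 48 h replicate 2 to 0.0700 in 96 h replicate 2. A two-sided exact sign-flip permutation test gave p = 0.0938, or 0.2 adjusted over 8 tests. For the repeat share the mean difference was 5.89 points, higher in 3 of 6 replicates, with an exact sign-flip p of 0.344. Without 48 h replicate 2 the mean differences were -2.72 points for the motif and 0.820 for the repeat. With lists of 821 peaks the motif difference was -1.30 points (exact sign-flip p = 0.562) and positive in all 3 of the 48 h replicates, at 3.76, 2.31 and 0.513. The motif was learned mostly on sites in all 3 lists, the set compared with here.

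Members lay mostly away from promoters. The centre of 57 members fell within 3 kb upstream of an annotated start (6.33%, exact 95% interval 4.83 to 8.12), against 9.35% of all sites and 10.2% of sites in all 3 lists. Introns held 354 members (39.3%, 36.1 to 42.6) against 35.0% of all sites, and 440 members were intergenic (48.8%, against 47.7%). Without the members of replicate 2 only the promoter share was 7.06% (5.30 to 9.18). Coding exons, 5′ UTRs and 3′ UTRs held 6, 3 and 6 members, and 35 lay just downstream of a gene. Annotation came from GENCODE on the mm9 build.

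Among member peaks the promoter share was 3.68%, 3.32% and 5.06% in the 48 h replicates and 6.45%, 5.25% and 7.03% in the 96 h replicates. Peaks of sites in all 3 lists had 10.7%, 9.18% and 10.7%, then 10.3%, 11.1% and 10.5%. The member share was lower in 6 of 6 replicates, with a mean difference of -5.27 ± 1.35 percentage points (SD, n = 6). The exact sign-flip permutation test gave p = 0.0312, the smallest it can give, but 0.2 after adjustment over 8 tests, so the difference did not pass the correction. The replicates share sites, so their differences are not independent draws of sites.

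Between time points the promoter share of member peaks was 4.02% ± 0.916 at 48 h and 6.24% ± 0.907 at 96 h (SD, n = 3 each). The groups did not overlap, with an exact permutation p of 0.1, or 0.2 adjusted over 8 tests. With lists of 821 peaks the difference shrank from 2.22 to 0.408 points (p = 0.8, exact permutation).

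**Figure D5:**
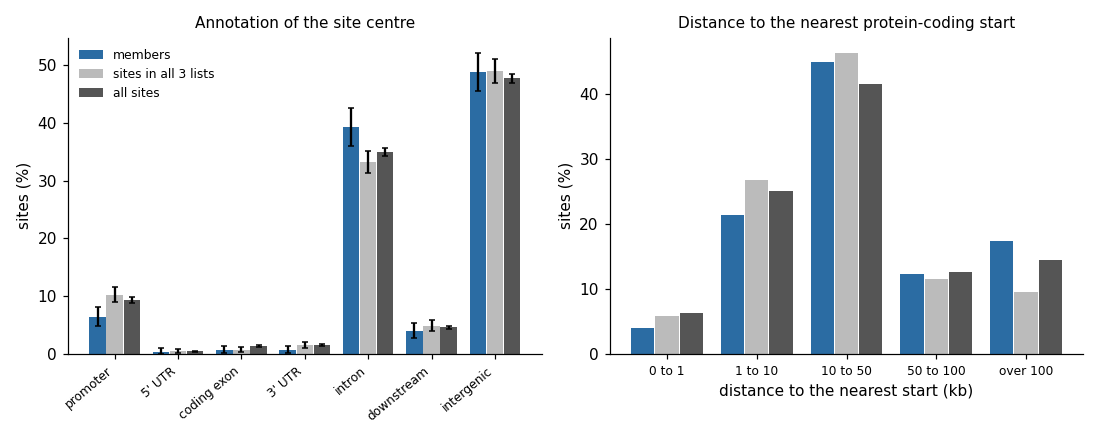
Left, percentage of members, of sites in all 3 lists and of all sites by the annotation of the site centre, with exact 95% binomial intervals. Right, the same sets by distance from the centre to the nearest protein-coding start in kb. Members lie in promoters in 6.33% of cases against 10.2% of sites in all 3 lists, and 17.4% lie over 100 kb from a start against 9.49%, or 7.06% and 11.5% of members without those of 48 h replicate 2 only.

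The median member was 25.2 kb from the nearest protein-coding start, against 18.8 kb for sites in all 3 lists. Members of replicate 2 only were farther away, at a median of 70.9 kb, and those with no 48 h replicate closer, at 19.9 kb. Without the former the median was 21.9 kb, and 11.5% of members in place of 17.4% lay over 100 kb from a start. The nearest resting pooled peak lay at a median of 128 kb from members, or 102 kb without those of replicate 2 only. It lay at 107 kb for sites of the 96 h list only and 324 kb for sites of the 48 h list only. A resting pooled peak was within 1 kb of 8 members (0.888%), against 1.09% and 1.13% of those sites. The rule removed sites that overlapped such a peak. Another site lay within 10 kb of 23.9% of members and of 24.1% of all sites. The X chromosome held 9 members, 2.47% of its 365 sites.

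The members with the broadest support lay in varied places. The site chr2:39228615-39228921, 147 kb upstream of Ppp6c, a catalytic subunit of protein phosphatase 6, had a peak in all 6 stimulated replicates. Its score percentiles were 99.8, 47.6 and 94.9 in the 48 h replicates and 52.3, 94.9 and 97.9 in the 96 h replicates. The other such site, chr12:99859247-99859501, lay 6.99 kb upstream of Spata7, a gene for a ciliary protein. Its percentiles were 45.9, 11.6 and 56.8 at 48 h and 93.9, 66.9 and 80.3 at 96 h. Both were thus seen throughout, with ranks that varied widely between replicates of a time point.

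The next sites by this rule had a peak in 5 stimulated replicates, and in most of them replicate 2 of 48 h was the one without. A site downstream of Igfbp2, chr1:72901516-72901807, stood at percentiles 75.6 and 84.6 in 48 h replicates 1 and 3 and at 77.8, 98.9 and 94.0 at 96 h. Igfbp2 encodes a binding protein for insulin-like growth factors. A site in intron 12 of Mink1, a gene for a serine/threonine kinase, chr11:70418730-70419019, stood at 85.3 and 13.0 at 48 h and at 94.8, 98.6 and 96.7 at 96 h. In the 96 h pooled list this site reached percentile 98.9, the highest of the 10 sites named by this rule.

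Others were in intron 14 of Slc12a1, which encodes a kidney sodium-potassium-chloride cotransporter, in intron 8 of Arhgap12, and 9.05 kb upstream of Col6a1, a collagen VI chain gene. The last had a peak in 48 h replicates 1 and 2 but not 3. Intergenic sites of the same rule had Nav2, 1600012F09Rik and Tbc1d30 as the genes with the nearest start. All 10 sites had a motif match, and none had a tandem repeat.

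Genes with a member in the body or within 10 kb of a start numbered 544 of 22232 protein-coding genes (2.45%). Of the 196 annotated genes in 12 lists of B cell functions, the cohesin complex and other cell types, 8 had one (4.08%). For comparison, any of the 15705 sites lay at 50.5% of the list genes and 33.4% of protein-coding genes.

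Of 17 annotated genes of the B cell receptor pathway, 3 (17.6%) had a member site, against 2.45% of protein-coding genes. A site of any class lay at 64.7% of these 17 genes, against 33.4% of protein-coding genes, and the difference was not tested. Lyn encodes a Src family kinase, Plcg2 a phospholipase and Prkcb protein kinase C beta, all of which act below the receptor. The Lyn site, chr4:3707592-3707811 in intron 10, stood at percentiles 29.6 and 50.8 of the 48 h and 96 h pooled lists and had a peak in 96 h replicate 3 only. The Plcg2 site, chr8:120093440-120093636 in intron 7, stood at 13.4 and 58.9 and had no replicate peak.

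Prkcb had 2 sites of different kinds. The site in intron 5, chr7:129614212-129614470, had a motif match and a peak in 48 h replicate 1 and 96 h replicate 3. The site in intron 2, chr7:129434879-129435020, had no match but a repeat of 47 bases, and its only replicate peak was in 48 h replicate 2.

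Bach2, the only gene with a member among 17 B cell identity transcription factors, encodes a repressor that restrains plasma cell differentiation and is needed for class switching. Its intron 5 site, chr4:32659174-32659425, stood at percentile 34.3 of the 48 h pooled list and 90.7 of the 96 h pooled list. All 3 of the 96 h replicates had a peak there, at percentiles 63.1, 69.3 and 69.2, and no 48 h replicate did. Its intron 4 site, chr4:32605857-32606110, stood at 99.4 and 68.1, with a peak in 48 h replicates 2 and 3 and in 96 h replicates 1 and 3. That site had a repeat of 66 bases, no motif match, and only 38.8% unique words.

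The remaining B cell list genes rested on 1 site each, and H2-Aa and H2-Ab1 on the same one. These 2 were the genes with a member among 16 of the list for costimulation and antigen presentation (12.5%). Thus 1 site gave 2 of the 8 list genes with a member. A site in an intron of H2-Aa, which also lay within 10 kb of the start of H2-Ab1, had no replicate peak and stood at percentiles 9.47 and 23.1. Both genes encode chains of the MHC class II molecule I-A. A site in intron 3 of Itgb1, the integrin beta 1 gene, had a peak in 48 h replicate 1 and 96 h replicate 3.

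For genes of other cell types the counts were near the background of 2.45%. The T cell list had 1 of 16 genes (6.25%), Bcl11b, a transcription factor gene of T cell development, and the myeloid list 0 of 13. The Bcl11b site, chr12:109237034-109237308 in intron 1, had a peak in 48 h replicate 1 and in all 3 of the 96 h replicates, at percentiles 55.0, 66.9 and 87.7. Binding positions do not show whether a gene is expressed.

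No gene of the lists for plasma cell differentiation and secretion (14 genes), class switch and DNA break repair (20), the LPS receptor and NF-kB pathway (18), IL-4 receptor signalling (14), cell cycle and DNA replication (20) or cohesin and CTCF (16) had a member site. Between 40.0% and 57.1% of the genes of these lists had a site of any class. At 2.45% a list of 20 genes would hold fewer than 1 such gene, so a count of 0 was within reach of the background.

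At least 2 members lay at each of 20 genes. Fgfr2 had 6 and Gm20388 had 5, in gene models of 3009 kb and 4435 kb that span many other genes. One of the Gm20388 sites, chr8:123331716-123331957, lay 67.9 kb from the start of Irf8, a transcription factor gene of B cell and myeloid development. It had a motif match and a peak in 96 h replicate 3 only. The other genes named by this rule had 2 members each and were Ahi1, Akap7, Arhgap26, Armc7, Bach2, Clec16a, Clic6 and Ctbp2.

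The 2 sites at Ctbp2, a transcriptional corepressor gene, were among the better supported of these. The intron 1 site stood at percentile 84.7 of the 96 h pooled list with a peak in all 3 of the 96 h replicates. The promoter site, 2.62 kb upstream of the start, stood at 84.4 with a peak in 48 h replicate 3 and in 96 h replicates 1 and 3. At Clec16a the intron 5 site likewise had a peak in all 3 of the 96 h replicates, and the intron 19 site in 96 h replicate 2 only.

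Among members of 48 h replicate 2 only, the 5 with the highest 48 h rank stood at percentiles 98.8, 98.6, 98.2, 98.1 and 97.9 of the 48 h pooled list and between 37.7 and 60.2 of the 96 h pooled list. None had a peak in a 96 h replicate or a motif match. A repeat was held by 4 of them, and the fifth was a site 1.37 kb upstream of Tpm2, a tropomyosin gene, with 65.3% unique words. The repeat sequences shown above come from 3 of them.

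The 5 members named for a resting replicate peak each had a single one. They included a site 4.39 kb upstream of Dpy30, a gene for a subunit of histone H3 lysine 4 methyltransferases, and a site in intron 13 of Ece2. Others were in intron 1 of 4931406P16Rik, at the promoter of Rwdd3 and downstream of Rnf220. All 5 had a motif match.

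At the edge of the rule, the members nearest to a resting pooled peak lay 190, 225 and 363 bp from it. The first was on chromosome 11, the second lay 59.5 kb from the start of Malt1, a gene for a signalling protease of lymphocytes, and the third was in intron 10 of Tmprss6. They stood at percentiles 29.6, 38.0 and 37.8 of the 48 h pooled list. The sites with the shortest overlap with a resting peak, which the rule left out, shared 87, 89 and 89 bp and lay nearest to the starts of Ptp4a3, Rps12-ps2 and Sv2b. They stood at percentiles 13.9, 97.5 and 99.2 of the 48 h pooled list.

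The number of members depended on how the lists were cut. With each pooled list limited to its 5579 highest-scoring peaks it was 493, and with only pooled peaks that at least 1 replicate of the time point supported it was 578. Of these, 357 lay at members and 221 elsewhere, since the filter was also applied to the resting list. With at least 2 supporting replicates it was 198, of which 44 lay at members. Without the 48 h pooled peaks of replicate 2 only it was 722.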

How the data were processed

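RAD21 chromatin immunoprecipitation was sequenced in 3 replicates at 0 h, 48 h and 96 h. Per the study's methods, the authors aligned reads to mm9 with Bowtie 2, thinned each set of aligned reads to the same number of unique positions, merged replicates into pooled samples and called peaks with MACS 2 at a false discovery rate of 0.05, on each replicate and on the pools. The deposited lists give positions and a score whose scale is not stated, so the score was used only as a rank within its list. Reads per peak are not listed in them. The 9 input libraries were not used on their own.

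The members, the gene lists and the tests were chosen with earlier results of these data known. Peaks sharing 1 bp were merged, and a replicate supported a site when 1 of its peaks shared 1 bp with it. Sequence came from the mm9 genome, read with pysam 0.24.0, and genes from GENCODE. Numbering of introns follows the longest coding transcript. Promoters were the 3 kb upstream of a start. Intervals are exact binomial (95%) and cover counting error only. Replicate values were compared by exact permutation tests in Python 3.11.15 with numpy 2.4.6 and adjusted over the 8 tests by the Benjamini-Hochberg method. The replicates were separate biological samples, each pooled from several mice. The code was tested on simulated data.

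Sites named were those with a peak in the most stimulated replicates and no resting replicate (10), all at genes of the lists, the 5 with the highest 48 h rank among those of replicate 2 only, the 3 nearest to and the 3 just excluded by a resting peak, at most 5 with resting replicate peaks, and at most 10 genes with 2 or more members.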

Additional observations from a re-analysis of the deposited data

How the results depend on the processing

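The number of members, 901, stood at 107 with pooled peaks above the median score of the resting list, 493 with pooled lists of equal length, 442 with an overlap of 50% of both peaks, 578 with pooled peaks supported by at least 1 replicate (357 of them at members) and 198 with at least 2 (44 at members). It was 905 with peaks within 500 bp merged, 868 with no resting replicate peak either, and 722 without the 48 h pooled peaks of replicate 2 only, an alternative chosen after seeing the data. Leaving out a replicate moved the 578 supported members to between 384 (without 48 h replicate 1) and 933 (without resting replicate 3). The motif share of 74.1% was 46.2% at the threshold that 1% of windows passed and 90.3% without members of replicate 2 only. The repeat share of 17.8% was 4.16% without them, and the promoter share of 6.33% was 3.33% within 1 kb. Support at both times, 39.6%, was 6.22% with replicate lists of equal length and between 25.9% and 38.3% with a replicate left out. With lists of equal length the difference in the share of members with a peak reversed, to -4.59 points. The score difference of -5.12 was 0.102 with lists of equal length and 48 h replicate 2 left out together, also chosen after seeing the data. Leaving out a replicate moved the difference between 96 h and 48 h to between -11.6 and 7.67 percentile points for the score, -1.41 and 38.9 points for the motif share and -30.5 and 2.55 for the repeat share, each reversed only without 48 h replicate 2. The promoter difference to sites in all 3 lists, -5.27 points, was -5.73 as a median (exact sign-flip p = 0.125) and between -5.64 and -4.93 with a replicate left out, where 5 replicates cannot give an exact p below 0.0625. The replicate block, a permutation within replicate numbers, left the differences between 96 h and 48 h at 23.9, -5.12, 24.9, -19.1 and 2.22 points with exact p from 0.25 to 1. Same-numbered replicates deviated with correlations of -0.137, -0.00717 and 0.113 over sites, and the other pairs ranged from -0.169 to 0.195. These correlations show no pairing by number but cannot exclude one, since the lists differ in length. Whether same-numbered replicates shared a day or a preparation was not tested. The other 70 of 99 recomputed values kept their direction and side of the threshold, or stayed within the limits set for counts and shares. The limits for counts were wide, and 404 supported members without 48 h replicate 3 passed as unmoved from 578. In comparisons of 48 h with 96 h the exact p cannot fall below 0.1, so their side of the threshold was fixed in advance. The 70 values are therefore no measure of stability. A median in place of the mean was not run for replicate support, which is a share with no mean over replicates. The cause of these changes was not tested. Precision is limited by 3 replicates a group, by unknown read numbers per peak and by pooled lists made from the same replicates.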
